A study of Homo sapiens with 12 samples.

Results

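The replication-dependent histone genes encode the linker histone H1 and the core histones H2A, H2B, H3 and H4 that package newly made DNA. They were taken as the protein-coding genes whose symbol starts with H2AC, H2BC, H3C or H4C or is H1-1 to H1-5, or with the older HIST1H to HIST4H. This rule found 69 of the 65969 gene identifiers measured, 5 of class H1, 17 of class H2A, 19 of class H2B, 13 of class H3 and 15 of class H4. Of these, 54 lie on chromosome 6, 13 on chromosome 1, and 1 each on chromosomes 12 and 21. RNA came from embryoid bodies, aggregates that pluripotent cells form when they differentiate, of the established human embryonic stem cell lines H1 and MEL1. The line H1 and histone class H1 share a name, so the class is called linker histone below. Cells of every group had been transduced with a lentiviral hairpin, selected with puromycin, seeded at 500 cells per microwell and given doxycycline at 2 μg/ml for 10 days to induce it. H1 had 2 libraries each with the control hairpin SCR and with KD1, KD2 and KD3, hairpins against METTL14, which encodes a subunit of the RNA N6-methyladenosine writer. MEL1 had 1 SCR, 2 KD1 and 1 KD2 library. The labels do not say that libraries of a group came from separate cultures, so p-values measure only the spread between these samples, which may be technical.

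In most animal cells these genes are transcribed in S phase, and their messages end in a conserved stem-loop in place of a poly(A) tail. The stem-loop is bound by SLBP, the stem-loop binding protein, and the U7 small nuclear ribonucleoprotein guides the cut just after it. Several of the same genes are also known to make longer, polyadenylated messages from a downstream site, above all in differentiating and non-dividing cells.

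The stem-loops are shown because they decide which 3′ end a message can have. They were searched in GENCODE release 29 transcripts as the letters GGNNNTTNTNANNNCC with 6 paired positions, G-T pairs allowed. Capitals mark the 4 loop bases. In all, 31 of 67 genes with a transcript model held the pattern, against 0.307% of the 58676 genes searched.
Most H2A, H2B and H3 stem-loops: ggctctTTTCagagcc
H2BC4, H2BC5, H2BC7 and H3C8: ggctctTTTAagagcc
H3C6: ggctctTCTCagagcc
H2AC11: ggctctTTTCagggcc
H4C2, H4C5, H4C8, H4C11 and H4C16: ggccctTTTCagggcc
H4C9, H4C14 and H4C15: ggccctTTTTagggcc
The first sequence was that of 6 H2A, 8 H2B and 3 H3 genes. All 8 H4 stem-loops shared 1 stem, on the last 2 lines, and no stem-loop of another class had it. No linker histone model held the pattern, but those of H1-1, H1-2, H1-3 and H1-5 hold the coding sequence alone. Such models stop before the 3′ end of a message, so a stem-loop there could not be found.

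The genes were grouped by the position of the stem-loop in their models. In 23 genes a model ran on at least 100 bases past the stem-loop, and 16 of these had AATAAA, the usual poly(A) signal, in the last 40 bases of a model. H2BC21 ran on for 1729 bases, H2BC18 for 1479 and H2AC6 for 1128. In 8 genes every model that held the stem-loop stopped within 100 bases after it, among them H2BC5, with 39 bases, and H4C11, with 6. Models without a stem-loop were not counted here. H2BC5 has 2 models, spans chr6:26158146-26171349 and has AATAAA in the last 40 bases of a model. A further 3′ end, away from its stem-loop, was thus not excluded for H2BC5. The other 36 genes with a model, H1-2 and H2BC12 among them, had no stem-loop in it. In 30 of the 69 genes every model was the coding sequence and nothing else. These 30 are all among the 36, so a missing stem-loop there does not show that the gene lacks one. H3C2 and H3C3 had no model there.

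Promoters are shown for H1-2, H2AC6 and H2BC21, which are 3 of the 4 most abundant members. Each is the 250 bases before the start in RefSeq (GRCh38.p14), 5′ to 3′ on the strand of the gene. Capitals mark the TATA box TATAAA, the box CCAAT and the octamer ATTTGCAT. Each motif was searched on both strands.
H1-2, chr6:26056471-26056720, minus strand: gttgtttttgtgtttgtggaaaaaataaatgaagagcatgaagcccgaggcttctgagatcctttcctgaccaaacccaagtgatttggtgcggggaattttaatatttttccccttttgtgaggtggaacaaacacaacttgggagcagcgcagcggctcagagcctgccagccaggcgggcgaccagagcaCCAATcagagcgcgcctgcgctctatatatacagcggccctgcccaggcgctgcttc
H2AC6, chr6:26123922-26124171, plus strand: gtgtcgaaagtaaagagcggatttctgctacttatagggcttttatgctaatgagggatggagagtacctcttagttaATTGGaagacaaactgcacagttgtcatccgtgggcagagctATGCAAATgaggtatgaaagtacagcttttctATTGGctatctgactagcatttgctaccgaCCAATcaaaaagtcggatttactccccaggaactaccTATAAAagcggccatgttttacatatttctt
H2BC21, chr1:149886683-149886932, minus strand: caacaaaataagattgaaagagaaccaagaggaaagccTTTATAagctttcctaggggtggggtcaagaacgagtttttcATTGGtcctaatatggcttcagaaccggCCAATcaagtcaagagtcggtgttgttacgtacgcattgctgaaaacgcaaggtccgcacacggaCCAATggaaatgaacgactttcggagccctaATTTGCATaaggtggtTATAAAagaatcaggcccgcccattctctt
The counts that follow use the whole RefSeq window, which adds the 50 bases after the start. Of 63 members with a promoter in the table, 43 held TATAAA, against 13.99% of 27305 genes. CCAAT was in 53, against 39.7% of all genes, and in only 3 of the 13 H4 promoters. The octamer was in 14 of 18 H2B and 11 of 16 H2A promoters, in 1 of 11 H3 promoters and in none of the 5 linker histone or 13 H4 promoters, against 2.19% of all genes.

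Libraries held 15963241 estimated counts in MEL1 SCR and 36609628 to 43508287 in the other 11. METTL14 was at 29.8 and 43.8 CPM (counts per 1000000, scaled by library size factors) in the H1 SCR libraries and at 8.90 to 17.7 CPM in the 6 H1 knockdown libraries. MEL1 SCR held 49.9 CPM of it and the MEL1 knockdown libraries 5.94 to 8.95 CPM. It fell in the comparison over both lines, at −1.96 ± 0.23 log2 (SE; edgeR quasi-likelihood test, adjusted p = 0.00266).

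The histone genes together took 1439 to 15347 estimated counts of a library, between 0.00902% and 0.0385% of it. Of the 69 genes, 22 had a mean under 0.1 CPM, and 6 were at 0 in every library (H2AC1, H2BC1, H2BC12L, H4C1, H4C7 and H4C12). A count of 0 allows up to 3 counts, which is between 0.0642 and 0.204 CPM by library, for counting error only. Some other RNAs without a poly(A) tail were low as well, but 21 such RNAs together summed to 28.1 to 112 CPM by library. The 7SK RNA (RN7SK) was between 0 and 8.44 CPM, the telomerase RNA TERC reached 0.277 CPM, and the U7 RNA RNU7-1 was listed at 0 in all 12 libraries. Among replication-independent variants, whose messages are polyadenylated, H2AZ1 was at 355 to 655 CPM and H3-3A at 611 to 1120 CPM, while H2AJ was at 14.3 to 44.7 CPM, within the range of the leading members.

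A few genes carried most of the histone signal. H2AC6 (mean of 28.1 CPM over 12 libraries), H2BC21 (27.1 CPM), H2BC5 (25.5 CPM), H1-2 (20.1 CPM) and H2BC12 (8.57 CPM) made up 61.5% of the summed level. By class, H2B held 44.5%, H2A 25.3%, linker histone 12.8%, H4 12.2% and H3 5.17%. Per length, in CPM per kb of median transcript length, the order of the leading genes was H2BC5 at 39.7, H1-2 at 31.3, H2BC12 at 22.5, H2AC6 at 18.03 and H2BC21 at 12.4. The lengths of H1-2 and H2BC12 are coding lengths, so these values hold only if reads were counted on such models, and the annotation the authors used is not given in the sources used here.

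Levels differed with the 3′ end of the models. The median was 4.33 CPM per kb for the 8 genes, H2BC5 among them, whose models with a stem-loop stop near it. It was 1.51 for the 23 whose models run on and 0.163 for the 36 without a stem-loop in any model. The genes whose models run on held 58.4% of the summed level, and 18 of them had a mean of at least 1 CPM. Of the 36 without a stem-loop in any model, 5 reached that level: H1-2, H1-3, H1-4, H2BC11 and H2BC12. In 30 of the 36 the models hold the coding sequence alone, so this group is set by the annotation. It is not a group of genes known to lack a stem-loop. Genes with longer models could collect more reads, and the part of this in the order was not tested.

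**Figure D1:**
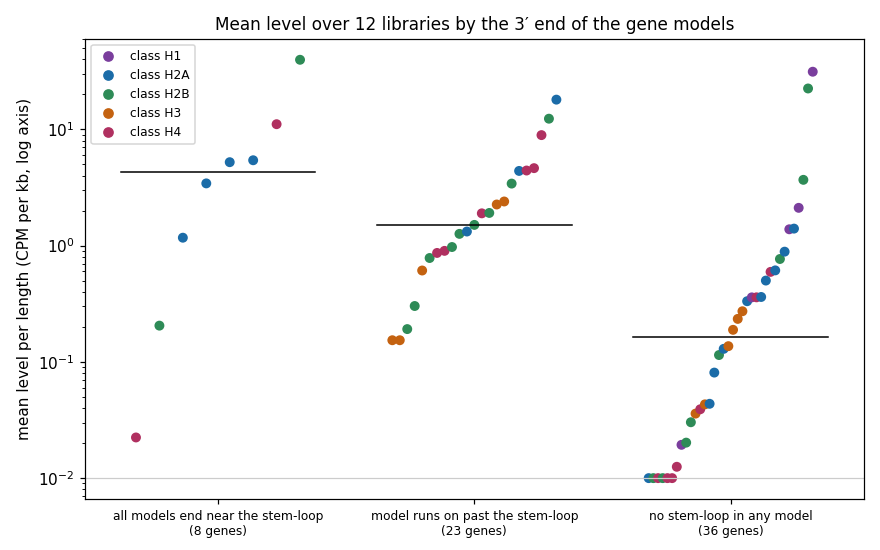
Mean level over the 12 libraries in CPM per kb (log axis) for each histone gene with a transcript model, grouped by the 3′ end of its models and coloured by class. Where a model held a stem-loop, models of that gene without it were not counted in the grouping. Lines are medians, at 4.33, 1.51 and 0.163 CPM per kb, and the 6 genes at 0 in every library are drawn at 0.01, on the grey line. H1-2 and H2BC12 stand above the other genes whose models lack a stem-loop.

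Neighbours on a shared promoter often differed in level. In 12 pairs of genes on opposite strands the promoter windows overlapped. H2BC7 was paired with both H2AC7 and H3C4, and H2AC1 and H2BC1 were both at 0. H2BC4, 246 bases from H2AC6, was at 0.973 CPM per kb against 18.03 for H2AC6. H2AC20, 236 bases from H2BC21, was at 1.40 against 12.4 CPM per kb. The length of H2AC20 is a coding length of 390 bases and that of H2BC21 is 2194 bases, so these 2 values rest on unlike models. In CPM they were at 0.547 and 27.1. H2BC8 and H2AC8, 233 bases apart, were at 3.42 and 3.43 CPM per kb.

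Some genes could not be measured apart. H3C14 and H3C15 have an identical model and identical estimated counts in every library. H4C14 and H4C15 share a model. The model of H2AC18 lies within that of H2AC19, and the model of H4C12 within that of H4C11. How reads were divided within these pairs is uncertain, so the 0 of H4C12 does not show that the gene is silent. H2AC19 was at 0 in MEL1 SCR and in an H1 SCR library that held 3.90 CPM of H2AC18. The other H1 SCR library held 0 CPM of H2AC18 and 2.67 CPM of H2AC19. Summed, the H2AC18 and H2AC19 pair was at 3.90 and 2.67 CPM in H1 SCR, 17.2 and 10.1 in KD1, 3.91 and 8.29 in KD2, and 5.88 and 2.89 in KD3. Its H1 knockdown libraries reached higher but overlapped SCR.

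The linker histone class was almost entirely H1-2 (HIST1H1C, chr6:26055787-26056428, minus strand, GENCODE release 29 on GRCh38). In H1 it was at 10.3 and 7.35 CPM with SCR, 57.1 and 27.5 with KD1, 11.3 and 30.9 with KD2, and 28.8 and 12.2 with KD3. In MEL1 it was at 11.04 CPM with SCR, 11.6 and 19.1 with KD1 and 14.3 with KD2. All 9 knockdown libraries lay above all 3 SCR libraries, which no other tested member did. This holds for 0.723% of all tested genes, and 0.992% lay below in all 9, among them no member. The H1 means were 8.82 ± 2.09 CPM (SD, n = 2) and 28.0 ± 16.6 CPM (SD, n = 6). The difference of 1.58 ± 0.59 log2 in H1 did not pass the test (edgeR adjusted p = 0.176), nor did 1.23 ± 0.48 over both lines (edgeR adjusted p = 0.241). For H1-3 the H1 mean was 1.73 ± 0.09 CPM under SCR (SD, n = 2) and 1.81 ± 0.84 CPM under the hairpins (SD, n = 6). H1-4 was at 1.06 ± 0.31 and 1.12 ± 0.81 CPM, differences smaller than the spread. H1-5 did not exceed 0.604 CPM in any library, and H1-1 had no count in 10 of 12.

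Class H2A was led by H2AC6 (HIST1H2AC, chr6:26124145-26139116, plus strand). In H1 it was at 26.8 and 17.9 CPM with SCR, 44.8 and 34.9 with KD1, 21.2 and 40.9 with KD2, and 38.6 and 39.7 with KD3. In MEL1 it was at 15.8 CPM with SCR, 12.6 and 16.1 with KD1 and 27.8 with KD2. All but the first KD2 library lay above both H1 SCR libraries, and the difference of 0.70 ± 0.26 log2 did not pass the test (edgeR adjusted p = 0.141). H2AC8 (HIST1H2AE) was at 1.20 and 0.894 CPM with SCR and at 4.00 and 2.91 with KD1 in H1. It rose with KD1, at 1.72 ± 0.41 log2 (edgeR adjusted p = 0.0246). With KD2 it was at 1.20 and 1.85 CPM and with KD3 at 2.71 and 1.24 CPM, and neither passed.

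Class H2B held the widest differences. H2BC21 (HIST2H2BE, chr1:149884459-149886652, minus strand) was at 15.5 and 9.63 CPM with SCR in H1. It was at 111 and 46.6 CPM with KD1, 9.41 and 35.3 with KD2, and 42.3 and 19.3 with KD3. The first KD2 library was below both SCR libraries and the other 5 were above them. In MEL1 it was at 5.79 CPM with SCR, 8.76 and 12.6 with KD1 and 9.31 with KD2. The H1 difference was 1.59 ± 0.69 log2 (edgeR adjusted p = 0.238).

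H2BC5 (HIST1H2BD) was at 22.7 and 13.1 CPM with SCR in H1, 52.7 and 37.2 with KD1, 16.8 and 38.1 with KD2, and 41.0 and 31.5 with KD3. In MEL1 it was at 11.1 CPM with SCR, 10.7 and 11.5 with KD1 and 19.7 with KD2. The same first KD2 library fell between the SCR libraries, and the H1 difference was 0.99 ± 0.35 log2 (edgeR adjusted p = 0.134). H2BC12 (HIST1H2BK) stood at 9.48 and 5.90 CPM under SCR and between 7.83 and 16.5 CPM in the H1 knockdown libraries, an overlap, at 0.48 ± 0.21 log2 (edgeR adjusted p = 0.212).

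H2BC18 (HIST2H2BF, chr1:149782689-149812373, minus strand) was the 1 member that rose in the H1 average over hairpins. It was at 0.311 and 0.662 CPM with SCR, 9.59 and 3.23 with KD1, 1.44 and 3.58 with KD2, and 2.39 and 1.99 with KD3. All 6 knockdown libraries lay above both SCR libraries. The change was 2.75 ± 0.58 log2 (edgeR adjusted p = 0.0246). In MEL1 it was at 0.954 CPM with SCR, 0.435 and 0.664 with KD1 and 1.48 with KD2, so the groups overlapped. The call was lost without either H1 SCR library, at edgeR adjusted p-values of 0.12 and 0.121.

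**Figure D2:**
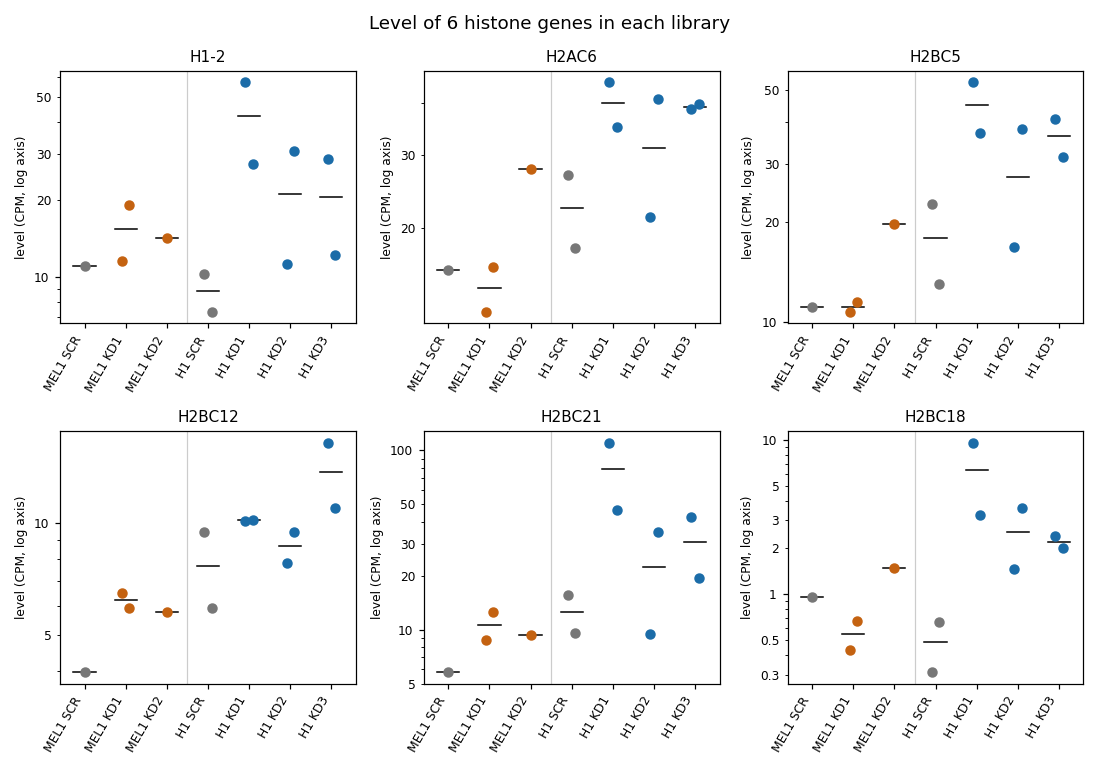
Level in CPM (log axes) of H1-2, H2AC6, H2BC5, H2BC12, H2BC21 and H2BC18 in each library, by line and hairpin. Points are libraries, black lines are group means, grey points are SCR. Within H1 the 2 libraries of KD1 and of KD2 lie apart for most of these genes, and H1-2 is the gene whose 9 knockdown points all lie above the 3 SCR points.

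Class H3 was low. For H3C6 (HIST1H3E) the H1 mean was 2.92 ± 0.88 CPM under SCR (SD, n = 2) and 3.77 ± 0.81 CPM under the hairpins (SD, n = 6). H3C10 (HIST1H3H) stood at 1.77 and 2.05 CPM under SCR and between 2.03 and 4.20 CPM under the hairpins. H3C8 (HIST1H3G) stood at 1.54 and 1.14 CPM under SCR and between 0.715 and 1.54 CPM under the hairpins. No H3 gene passed the test in H1. The other 10 H3 genes each had a mean under 0.3 CPM.

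Class H4 showed no common direction. H4C11 (HIST1H4J), whose reads cannot be told apart with certainty from those of H4C12, was at 4.15 and 4.59 CPM with SCR. It was between 2.98 and 5.05 CPM in the H1 knockdown libraries. H4C15 (HIST2H4B) was at 4.02 and 4.10 CPM with SCR, 6.06 and 5.29 with KD1, 9.45 and 7.18 with KD2, and 2.83 and 3.29 with KD3. It was the 1 member that differed between the H1 hairpins (edgeR adjusted p = 0.0261, 2 degrees of freedom), where 3.54% of all genes were called and 20% had an unadjusted p under 0.05. The call was lost without either KD1 library, the first KD2 library or either KD3 library, at an edgeR adjusted p of up to 0.0995. Its copy H4C14 was at 8.25 and 6.58 CPM with SCR, 3.65 and 3.33 with KD1, 3.13 and 7.03 with KD2, and 7.16 and 6.40 with KD3. Their sum was at 12.3 and 10.7 CPM with SCR, 9.71 and 8.62 with KD1, 12.6 and 14.2 with KD2, and 9.99 and 9.69 with KD3. The sum spanned 8.62 to 14.2 CPM over the H1 knockdown libraries, against 2.83 to 9.45 for H4C15, so the division of reads within the pair moves with the H4C15 result.

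Summed over a class, the mean of the H1 knockdown libraries was above that of SCR for linker histone, H2B and H2A. The first KD2 library lay inside the SCR range for H2A and H2B, and for linker histone it was level with the higher SCR library, at 13.2 CPM in both. The linker histone sum averaged 12.1 ± 1.64 CPM under SCR (SD, n = 2) and 31.2 ± 18.2 CPM under the hairpins (SD, n = 6), a ratio of 2.58. The H2B sum was 49.4 ± 15.3 and 114 ± 56.7 CPM, a ratio of 2.32. The H2A sum was 35.1 ± 7.08 and 56.9 ± 13.98 CPM, a ratio of 1.62. For H3 the sums were 7.61 ± 0.77 and 9.06 ± 1.39 CPM, and for H4 22.8 ± 1.69 and 22.3 ± 2.90 CPM. In MEL1 the total was 98.1 CPM under SCR and averaged 127 ± 28.7 CPM under the hairpins (SD, n = 3), with 97.8 CPM in the lowest knockdown library. A bulk sample cannot tell fewer cells that make a message from less message per cell.

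**Figure D3:**
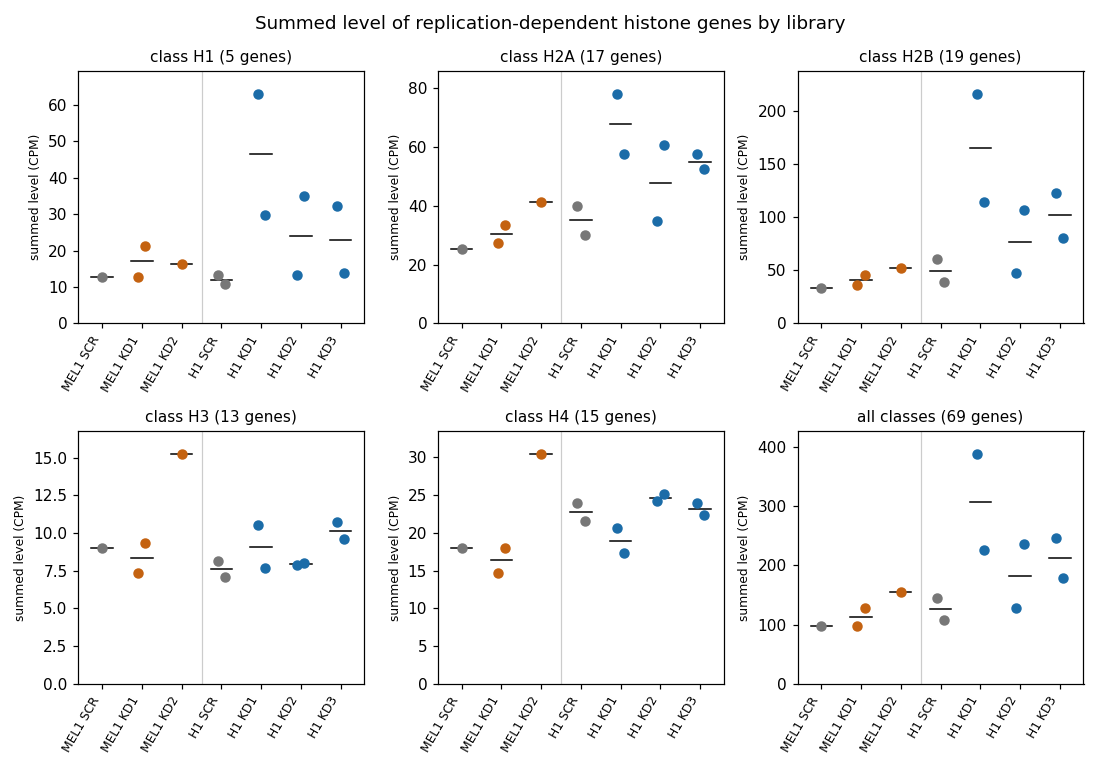
Summed level in CPM of each histone class and of all 69 genes in each library, by line and hairpin. Points are libraries, black lines are group means, and axes start at 0. The first H1 KD1 library is the highest for linker histone, H2A, H2B and the total (388 CPM), while H4 stays between 17.3 and 25.2 CPM in all H1 libraries.

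The test of the H1 average covered 48 of the 69 genes, those that passed the filter on low counts. H2BC18 was the only one called, against 7.16% of all 24898 genes tested and 2.23% called higher. At an unadjusted p under 0.05 there were 10, against 23.2% of all genes, so neither share was above the background. All 10 were higher. The members' median was 0.35 log2 and that of all genes 0.01. Of the 14 H2B genes tested, 14 had a positive estimate, at a median of 0.92 log2. The H2B median stayed between 0.75 and 1.09 log2 under the 20 other settings, including other scalings, and was 0.87 log2 without the first KD1 library. The medians of the other classes were 0.05 log2 for H2A, −0.02 for linker histone, −0.17 for H3 and 0.35 for H4. By 3′ end, the median was 0.74 log2 for genes whose models with a stem-loop end near it (5 of 7 positive). It was 0.61 log2 for those that run on (18 of 23). Genes without a stem-loop in their models, which mostly hold the coding sequence alone, were at −0.01 log2 (8 of 17). In MEL1 the same medians were 0.34, 0.52 and 0.42 log2. Members averaging 1 CPM or more had a median of 0.54 log2 and those under it −0.17 log2. All 6 knockdown libraries lay above both SCR libraries for 6 of 48 members (H1-2, H2BC7, H2BC15, H2BC18, H4C5 and H4C16), against 8.66% of all genes. They lay below for 1, H2AC4, against 11.7%, but H2AC4 was under the limit that a count of 0 allows in all 8 H1 libraries, so no difference was detectable.

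**Figure D4:**
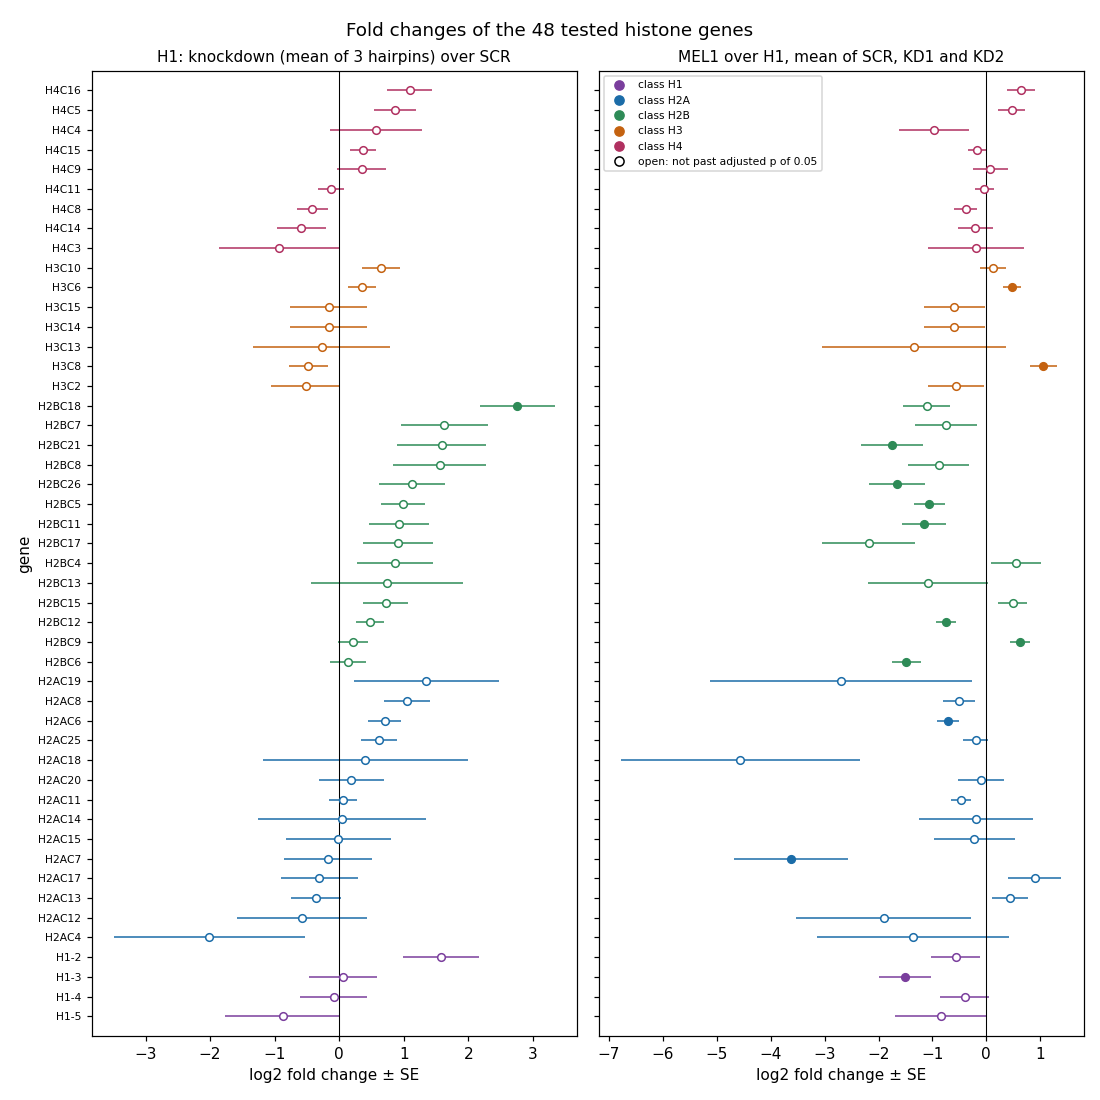
Log2 fold change ± SE of the 48 tested histone genes in H1 knockdown over SCR (left) and in MEL1 over H1 (right), coloured by class. Filled points passed an edgeR adjusted p of 0.05. On the left only H2BC18 is filled and all 14 H2B points lie right of 0, and on the right 9 genes are filled below 0 and 3 above.

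Each hairpin was also compared with SCR by itself. With KD1, 2 members rose (H2BC18 at 3.72 ± 0.65 log2, edgeR adjusted p = 0.00999, and H2AC8), against 11.1% of all genes called and 4.25% called higher. Without the first KD1 library, or without the second SCR library, neither was called. H2AC8 also lost its call without the second KD1 library. For KD1, 14 members had an unadjusted p under 0.05, 13 of them higher, against 26.6% of all genes. With KD2 no member was called, against 1.54% of all genes. There, H2BC18 was at 2.37 ± 0.64 log2 (edgeR adjusted p = 0.108), and 3 members had an unadjusted p under 0.05, against 16.1% of all genes. With KD3 no member was called, against 2.98%, and 10 had an unadjusted p under 0.05, against 19% of all genes. H2BC18 was at 2.17 ± 0.64 log2 there (edgeR adjusted p = 0.102). DESeq2 called 8 members with KD1, against 14.6% of all genes, 2 with KD2, against 4.61%, and 4 with KD3, against 6.84%. The size of the H2BC18 change was not shown to differ between hairpins (edgeR adjusted p = 0.211). These comparisons share the same 2 SCR libraries. The first KD1 library was the highest of the 8 H1 libraries for 14 of the 28 members that averaged 1 CPM or more, and the second KD1 library for none. The summed level was 388 and 227 CPM in the KD1 libraries, 127 and 235 in KD2, and 247 and 179 in KD3, against 146 and 108 with SCR. The first KD2 library lay inside the SCR range.

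Over both lines no member was called by edgeR, against 0.213% of all genes. DESeq2 called none either, against 5.02% of all genes. At an unadjusted p under 0.05 there were 11, all higher, against 15.7% of all genes. The median was 0.35 log2, with 38 of 48 positive, against 0.05 log2 and 55.1% of all genes. In MEL1 by itself no member was called, against 4.45% of all genes, and 3 had an unadjusted p under 0.05, against 22.7%. All 3 knockdown libraries lay above SCR for 18 of 48 members, against 31.7% of all genes, and below it for 4, against 25.7%. DESeq2 called 1, H2AC19, a member of an uncertain pair. The MEL1 SCR group is 1 library, assumed here to vary like the other groups, and it was the shallowest. Whether KD1 and KD2 acted differently in MEL1 and H1 was tested too, and no member was called, against 0.598% of all genes. There, 4 had an unadjusted p under 0.05, against 17.2% of all genes, and H2BC18 was at −3.13 ± 1.03 log2 (edgeR adjusted p = 0.169). DESeq2 called H2BC18.

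At matched hairpins, 12 of 48 members differed between MEL1 and H1, against 49.1% of all genes called, so the share was below the background. In MEL1, 9 were lower, against 26.2% of all genes, and 3 higher, against 23%. At an unadjusted p under 0.05 there were 16 members, against 55.3% of all genes. Of the 9 lower ones 6 were H2B genes. H2BC6 (HIST1H2BE) was between 0.409 and 1.35 CPM in the 4 MEL1 libraries and between 1.60 and 3.90 in the 8 H1 libraries, without overlap, at −1.49 ± 0.27 log2 (edgeR adjusted p = 0.000874). H2BC21 was at −1.75 ± 0.57 log2 (edgeR adjusted p = 0.0457), H1-3 at −1.51 ± 0.49, H2BC11 at −1.16 ± 0.41 and H2BC5 at −1.06 ± 0.29. The call of H2BC21 rests on single libraries, with an edgeR adjusted p of up to 0.114 when 1 was left out. Of 17 other settings, it was called in 6, H3C6 in 8, H2BC11 in 12 and H1-3 in 15. H2AC6, H2BC12 and H2BC26 were lower too. Among the called members H2AC7 had the lowest estimate, −3.62 ± 1.06 log2, but did not exceed 0.109 CPM in MEL1 or 0.896 CPM in H1. Higher in MEL1 were H3C8, at 1.06 ± 0.25 log2 (edgeR adjusted p = 0.0048), H2BC9, at 0.63 ± 0.19, and H3C6, at 0.47 ± 0.17. H3C8 was between 1.61 and 3.51 CPM in MEL1 and between 0.715 and 1.54 CPM in H1, without overlap. H2BC9 was between 4.09 and 5.74 CPM in MEL1 and between 2.79 and 4.70 CPM in H1. The H2B median was −1.07 log2, against −0.09 for all genes. The lines also differed in cell markers. The summed level of 8 pluripotent cell markers was 2791 to 5203 CPM in MEL1 and 1381 to 1625 in H1, with 8 of 8 called higher. That of 8 neural progenitor markers was 1215 to 1433 CPM in MEL1 and 2147 to 2690 in H1, with 8 of 8 called lower. The part of these markers in the histone differences was not tested.

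Several genes of the machinery for histone messages fell in H1. Of 22 genes for histone mRNA 3′ processing and decay, 7 fell and none rose in the H1 average, where 7.16% of all genes were called. By hairpin, 7 fell with KD1, 2 with KD2 and 1 with KD3, where 11.1%, 1.54% and 2.98% of all genes were called. SLBP, which binds the stem-loop, went from 63.4 ± 1.32 CPM under SCR (SD, n = 2) to 47.4 ± 4.79 CPM under the hairpins (SD, n = 6), at −0.43 ± 0.08 log2 (edgeR adjusted p = 0.0166). SNRPG, SNRPE and SNRPD3, Sm proteins that U7 shares with the spliceosomal particles, fell by 0.83, 0.55 and 0.38 on the log2 scale. In MEL1, 3 of the 22 fell, SLBP, SNRPG and SNRPD3, against 4.45% of all genes called. Over both lines only SNRPG did, against 0.213% of all genes. Of 10 regulators of histone gene transcription, CCNE1 fell in H1, by 0.75 on the log2 scale. It encodes cyclin E1, whose kinase acts on the histone locus activator NPAT. Of 20 histone chaperones, 4 fell in H1, among them HAT1, the acetyltransferase of new H4, by 0.77, and ASF1A, a chaperone of H3 and H4, by 0.45 on the log2 scale. By hairpin, 8 chaperones fell and 1 rose with KD1, and none was called with KD2 or KD3. In MEL1 4 chaperones fell, against 4.45% of all genes called.

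Of 38 genes for S phase and DNA replication, 21 fell and none rose in the H1 average, against 7.16% of all genes called, at a median of −0.46 log2 against 0.01 for all genes. The calls came mostly with KD1: 30 fell with KD1, 1 with KD2 and 6 with KD3. Of all genes, 11.1% were called with KD1, 1.54% with KD2 and 2.98% with KD3. RRM2, a subunit of ribonucleotide reductase, fell by 0.77 on the log2 scale, CDC6, which loads the replicative helicase, by 0.68, and TYMS, thymidylate synthase, by 0.60. The summed level of the list was 4300 and 4607 CPM with SCR, 2694 and 2953 with KD1, 4117 and 3356 with KD2, and 3520 and 3531 with KD3. The KD1 libraries, 1 of which held the highest histone sum, were thus the lowest for S phase genes, and the KD2 library inside the SCR range for histones was the highest of the hairpins for S phase genes. The part of this in the histone values was not tested. Over both lines 1 of the 38 was called, against 0.213% of all genes. It was PRIM2, a primase subunit, which fell by 0.57 on the log2 scale. In MEL1, 3 of the 38 fell and 1 rose, against 4.45% of all genes called.

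Of 11 replication-independent variants tested, which are made outside S phase too, 3 fell and 1 rose in the H1 average, against 7.16% of all genes called. By hairpin, 5 fell and 1 rose with KD1, none was called with KD2 and 2 fell with KD3. Of all genes, 11.1%, 1.54% and 2.98% were called there. Over both lines none was called, against 0.213% of all genes. The median in MEL1 was 0.14 log2, against 0.07 for all genes. In the H1 average CENPA, the centromeric H3, fell by 0.72, H2AZ1 by 0.61 and H3-3A by 0.41 on the log2 scale. Of 16 other RNAs without a poly(A) tail that were tested, none was called in the H1 average, against 7.16% of all genes, or over both lines, against 0.213%. RN7SL1, the signal recognition particle RNA, rose in MEL1 by 1.88 ± 0.38 log2 (edgeR adjusted p = 0.0281). It was the 1 called there, against 4.45% of all genes, and rests on 1 SCR library. The summed level of 21 such RNAs, tested or not, was 34.6 and 45.3 CPM under SCR in H1 and 28.1 to 45.9 CPM under the hairpins. The first H1 KD1 library did not stand out there. In MEL1 the sum was 31.2 CPM with SCR and 72.6 to 112 CPM in the knockdown libraries, without overlap. In the H1 average, where 7.16% of all genes were called, 4 of 8 pluripotent cell markers fell (ZFP42, POU5F1, NANOG and DNMT3B) and 3 had a positive estimate. Their sum overlapped, at 1493 and 1587 CPM under SCR and 1381 to 1625 CPM under the hairpins. Of 8 neural progenitor markers 5 rose (SIX3, LHX2, SOX2 and PAX6 among them) and 3 had a negative estimate. Their sum overlapped too, at 2147 and 2384 CPM under SCR and 2329 to 2690 CPM under the hairpins. Of 6 neuron markers STMN2 fell and 2 had a positive estimate. The neuron marker sum in H1 was 450 and 511 CPM under SCR, 401 and 397 with KD1 and 400 and 381 with KD2. With KD3 it was higher than SCR, at 544 and 597 CPM. Of 7 mesoderm and endothelial markers KDR fell, by 1.07 on the log2 scale, and 1 had a positive estimate. No endoderm marker was called. The part of these markers in the histone values was not tested.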

How the data were processed

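The 12 libraries were stranded total RNA libraries, per the labels' protocols. The authors deposited 1 table of estimated counts by Ensembl gene, made with fastp and kallisto per the submitters' processing notes. The index, annotation, genome build and strand setting are not given in the sources used here. Between 14.7% and 20.7% of values were not whole. Symbols came from a name table holding 59243 of 65969 identifiers and, for identifiers missing there, from GENCODE release 29, which added 2 members. Lengths are the median of a gene's GENCODE transcripts, or of RefSeq's for H3C2 and H3C3. Estimated counts were rounded. edgeR 4.0.16 (limma 3.58.1, R 4.3.3) kept 24898 genes by filterByExpr on the 7 groups, scaled by TMM and ran robust quasi-likelihood F-tests, Benjamini-Hochberg adjusted over all genes, with a threshold of 0.05. SE was taken as the size of the log2 fold change over root F. The fit was tested on simulated data. Named were, in each class, the 3 members highest per length, each called member (where over 10 were called, the 5 largest rises and falls at 1 CPM or more) and up to 4 called genes of each of 12 lists. Other members named were chosen after their values were seen. The members and lists were chosen with earlier results of these data known. Alternatives were other scalings and filters, DESeq2 1.42.0, a non-robust fit, removal of a GC and length trend, the H1 libraries fitted separately, and each library left out in turn. The result for 1 gene of these lists is not reported here.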

Additional observations from a re-analysis of the deposited data

Results flagged for a closer look

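In 3 of 26 results tested, 1 of 6 H1 knockdown values lay far from the rest, its gap to the nearest being a larger share of the group's range than the critical value of 0.625. Chance gives this in about 1 in 20 groups. H2BC18 was at 9.59 CPM in the first KD1 library and elsewhere at 1.44 to 3.58 CPM, and the gap was 0.737 of the range. H2BC21 was at 111 CPM in the same library and elsewhere at 9.41 to 46.6 CPM, and the gap was 0.633 of the range. H2BC12 was at 16.5 CPM in the first KD3 library and elsewhere at 7.83 to 11.04 CPM, and the gap was 0.632 of the range. H4C15 differed between the 3 H1 hairpins by a test of the difference itself (edgeR adjusted p = 0.0261), and its level cannot be told apart from that of H4C14, with which it shares a transcript model.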

How the results depend on the processing

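No paired analysis was possible because the labels carry no replicate numbers. The number of members called depended on the settings. With no filter on low counts, which tests 63 members, 8 were called in the H1 average, 12 with KD1, 6 with KD2, 10 with KD3, 9 between hairpins, 3 in MEL1 and 5 in the difference between the lines' effects. In that fit the shares of all genes called were, in the same order, 8.11%, 10.4%, 4.35%, 5.7%, 8.43%, 6.73% and 3.41%. DESeq2 called 5 in the H1 average (H1-2, H2AC6, H2BC5, H2BC8 and H2BC18), 8 with KD1, 2 with KD2, 4 with KD3, 1 in MEL1 and 1 in the difference between the lines' effects, against 10.8%, 14.6%, 4.61%, 6.84%, 8.61% and 3.01% of all genes. The fit without robust estimation called 5 with KD1, against 10.7% of all genes. After removal of the GC and length trend, 1 was called with KD2, against 3.48%, and 2 with KD3, against 7.07%. With H1 libraries by themselves 1 of 43 was called with KD2, against 2%. The cause was not tested. Leaving out each library gave 0 to 1 calls over both lines, 0 to 3 in the H1 average, 0 to 5 with KD1, 0 to 1 with KD2, 0 to 1 with KD3, 0 to 1 between hairpins and 0 to 1 in MEL1. The H1 average lost its call without the first H1 SCR library and had 3 calls without the first H1 KD2 library. KD1 had none without its first library, 1 (H2BC18) without its second, and 4 and 5 without the first and the second KD2 library. H2AC19 was the member called in the H1 average, H1 KD1, KD2 and KD3 and over both lines without the second H1 SCR library, and in MEL1 without either H1 SCR library. H4C15 lost its call between hairpins in 5 of the runs that left out a library, and over all of these runs its adjusted p was 0.0218 to 0.0995. Between the lines 8 to 13 were called in such runs, and 16 with no filter, against 31.8% of all genes. Comparisons that need the MEL1 SCR or MEL1 KD2 group have no value without that library. Leaving out each library moved the H1 estimate of H1-3 between −0.28 and 0.26 log2, of H1-4 between −0.51 and 0.24 and of H2AC18 between −0.60 and 9.63, so these have no direction. The ratio of summed levels stayed between 1.60 and 2.16 in H1 and between 1.15 and 1.44 in MEL1. METTL14 kept its direction and its call under every setting run. Depth limits the 22 members under 0.1 CPM, for which no difference was detectable.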

Other observations

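Histone genes left out by the protein-coding rule were not all silent. Of 15 symbols that fit the names but are not protein-coding, only H2BC20P and H2BC19P are described here. H2BC20P was between 3.97 and 12.4 CPM and H2BC19P between 4.32 and 10.9 CPM over the 12 libraries, and 5 of the 69 protein-coding members had a mean above either. In H1, H2BC20P averaged 6.98 ± 0.28 CPM under SCR (SD, n = 2) and 10.7 ± 1.66 CPM under the hairpins (SD, n = 6). H2BC19P averaged 4.74 ± 0.01 and 8.16 ± 1.70 CPM. For each, all 6 knockdown libraries lay above both SCR libraries, which holds for 8.66% of all tested genes. Both resemble protein-coding H2B genes in sequence, so how reads were divided between them is uncertain. H1-6 and H3-4, germ-line histones that the names leave out, reached 0.0469 CPM and 0 CPM.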
